A study of Homo sapiens with 19 samples.

Results

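The albumin gene family described here comprises ALB, AFP, AFM and GC, 4 neighbouring genes on chromosome 4 that were taken by their Ensembl identifiers. They are 4 of the 32703 gene identifiers listed in every one of the 19 count matrices of the series. In GENCODE v44 (GRCh38), GC (ENSG00000145321) spans bases 71741696 to 71804041 on the minus strand with 13 exons in its canonical transcript. ALB (ENSG00000163631, bases 73397114 to 73421482), AFP (ENSG00000081051, bases 73431138 to 73456174) and AFM (ENSG00000079557, bases 73481745 to 73504001) follow in a row on the plus strand with 15 exons each. These spans cover all annotated transcripts. The gap between GC and ALB is 1593072 bases, that between ALB and AFP is 9655 bases and that between AFP and AFM is 25570 bases.

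The family encodes related carrier proteins that hepatocytes secrete into the blood. Albumin (ALB) is the main plasma protein and binds fatty acids, bilirubin and many drugs, alpha-fetoprotein (AFP) is its fetal counterpart, made by fetal liver and yolk sac and largely silenced after birth, afamin (AFM) binds vitamin E and Wnt proteins, and GC is the vitamin D binding protein. ALB and AFP are widely used to judge how far liver cells made from stem cells have matured, because AFP precedes ALB and is lost in adult liver. The locus is controlled by liver factors that include HNF4A, FOXA and C/EBP, with AFP also repressed after birth by ZHX2 and ZBTB20.

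The data are droplet single-cell RNA-seq of human liver organoids made from W01, an established human pluripotent stem cell line of wild-type genotype, with 10x Genomics 3′ chemistry, in which unique molecular identifiers (UMIs) count transcripts. Organoids in ultra-low attachment (ULA) plates received no treatment and were sampled on day 21 (n = 3 libraries) or day 34 (n = 2). The remaining 7 groups, of 2 libraries each, were grown with orbital shaking (OS) to day 25. They were untreated organoids, organoids given 10 ng/ml of TGFB1 (transforming growth factor β1), PA at 500 µM or OA at 500 µM, and a separate control for each of the 3 agents. TGFB1 and PA were given for the last 5 days, and the labels give no length for OA. PA and OA are kept as abbreviations because the labels do not spell them out, and what the controls received is not stated. All libraries come from 1 cell line, and nothing states that replicates were separate differentiations, so p-values measure the spread between these libraries.

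A cell was kept if it had 500 genes or more and no more than 20% of its counts from mitochondrial genes. This left 3089 to 12427 cells per library, with a median of 1310 to 14305 UMIs per kept cell. Levels are CPM, the UMIs of a gene summed over the kept cells of a library and scaled to a common library total, and were not scaled by gene length, since the UMIs mark 3′ ends, so between genes they say only which gave more UMIs. The number of listed genes was 58721 in ULA matrices, 33538 in those of TGFB1, PA and their controls and 36601 in the others, so a level set across these experiments is a description with no test. In whole libraries, fewer cells of a type and less RNA per cell cannot be told apart. Pairs of libraries shared at most 43 cell barcodes. ULA day 34 replicate 1 stood apart from replicate 2 in the family, and TGFB1 control replicate 1 was the shallowest library per cell. The 23 hepatocyte secretory genes listed here summed to 105 CPM in ULA day 34 replicate 1 and 24114 CPM in PA replicate 2, the lowest and highest libraries, and SERPINA1 gave the most UMIs among them by mean CPM. Every group also held UMIs of 10 gut epithelial genes, from 4.86 CPM in ULA day 34 replicate 1 to 13962 CPM with OA.

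The promoters of ALB, AFP and AFM, which lie side by side, are shown, and no promoter sequence was at hand for GC. These 3 genes were called lower together with TGFB1, while with OA ALB and AFP were called higher and AFM was not called. The RefSeq starts of ALB and AFP lie inside the wider gene spans given above. Each runs, 5′ to 3′, from 250 bases before to 50 bases after the RefSeq start (GRCh38.p14, plus strand, chr4:73404037-73404336 for ALB, chr4:73435971-73436270 for AFP and chr4:73481495-73481794 for AFM). Capitals mark exact matches, on either strand, to TATAAA (the core promoter box), the CCAAT box, the letters GTTAAT, the FOXA motif TGTTTAC and the C/EBP motif TTGCNNAA.
ALB: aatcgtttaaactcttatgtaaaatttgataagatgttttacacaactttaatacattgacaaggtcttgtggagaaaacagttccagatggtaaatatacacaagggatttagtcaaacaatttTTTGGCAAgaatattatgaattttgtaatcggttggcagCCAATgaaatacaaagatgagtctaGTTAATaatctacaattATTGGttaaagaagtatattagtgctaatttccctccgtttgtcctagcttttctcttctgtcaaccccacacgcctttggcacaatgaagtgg
AFP: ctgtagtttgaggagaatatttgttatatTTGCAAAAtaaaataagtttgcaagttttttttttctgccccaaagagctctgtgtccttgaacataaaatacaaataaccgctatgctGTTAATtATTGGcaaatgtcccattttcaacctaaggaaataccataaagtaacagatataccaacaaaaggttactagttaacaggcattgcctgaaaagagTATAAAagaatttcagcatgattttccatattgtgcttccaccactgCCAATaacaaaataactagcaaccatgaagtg
AFM: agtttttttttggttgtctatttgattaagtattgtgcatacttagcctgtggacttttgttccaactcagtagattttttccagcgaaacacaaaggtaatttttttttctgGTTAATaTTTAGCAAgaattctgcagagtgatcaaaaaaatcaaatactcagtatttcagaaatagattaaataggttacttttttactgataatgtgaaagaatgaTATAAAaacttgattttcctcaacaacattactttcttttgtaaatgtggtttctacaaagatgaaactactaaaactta
Each of the 3 promoters held 1 GTTAAT, which 6.88% of the 35116 RefSeq promoters of the same length hold. It lay at bases -61 to -56 before the start of ALB, -132 to -127 in AFP and -137 to -132 in AFM. Each also held 1 match to TTGCNNAA, found in 10.5% of all promoters. TATAAA was found in AFP and AFM at bases -29 to -24 and -30 to -25, and in 11.5% of all promoters. CCAAT was found in ALB and AFP and in 34.6% of all promoters, and TGTTTAC in none of the 3 and in 3.42% of all. No match overlapped another. The capitals are matches of letters and say nothing of binding in these cells.

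AFP gave the most UMIs of the 4 members in each of the 19 libraries, and ALB, AFP and GC followed different orders across the 9 groups. ALB was highest with OA, at 687 and 301 CPM in replicates 1 and 2. It was 60.4 and 88.8 CPM with PA, 33.3 and 43.1 CPM in the PA control, 36.0 and 20.1 CPM in untreated OS organoids and 22.0 and 7.29 CPM in the OA control. It lay lower in ULA day 21 (4.30, 4.90 and 5.49 CPM) and the TGFB1 control (3.35 and 3.14 CPM). It was lowest in ULA day 34 (0.0396 and 0.316 CPM) and with TGFB1 (0.136 and 0.102 CPM). Neighbours in this order overlapped between the PA control and untreated organoids, between untreated organoids and the OA control, and between ULA day 34 and TGFB1, and the others did not.

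AFP was likewise highest with OA (5871 and 4517 CPM), followed by untreated OS organoids (2362 and 2231 CPM). The PA control held 660 and 786 CPM, PA 536 and 791 CPM, the OA control 458 and 505 CPM and the TGFB1 control 521 and 431 CPM. ULA day 21 held 382, 330 and 474 CPM. The lowest libraries were those of TGFB1 (79.0 and 88.6 CPM) and ULA day 34 (2.96 and 57.9 CPM). In this order the PA control overlapped PA, the OA control overlapped the TGFB1 control, and the TGFB1 control overlapped ULA day 21.

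GC had another order. It was highest in the PA experiment, with 225 and 230 CPM in PA and 246 and 166 CPM in its control, and next in the TGFB1 control (174 and 103 CPM). OA held 41.1 and 42.7 CPM, the OA control 8.31 and 21.3 CPM, TGFB1 11.5 and 16.4 CPM and untreated organoids 17.7 and 9.80 CPM. ULA organoids held 0.504, 0.154 and 1.00 CPM on day 21 and 0.106 and 6.82 CPM on day 34. The libraries of untreated organoids, TGFB1 and the OA control overlapped one another, as did PA, its control and the TGFB1 control as neighbours in the order. Untreated organoids thus ranked 2 of 9 in mean AFP and 7 of 9 in mean GC.

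AFM was near the limit of counting. It gave 0 to 29 UMIs per library and at most 0.569 CPM, in TGFB1 control replicate 1. The other libraries over 0.3 CPM were TGFB1 control replicate 2 (0.344 CPM), OA control replicate 2 (0.362 CPM) and OA replicate 1 (0.538 CPM), while OA replicate 2 held 0.0768 CPM from 4 UMIs. ULA day 21 replicate 2 held 0 UMIs, which allows up to 0.0462 CPM. Neighbouring groups in the order of AFM levels overlapped throughout.

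**Figure D1:**
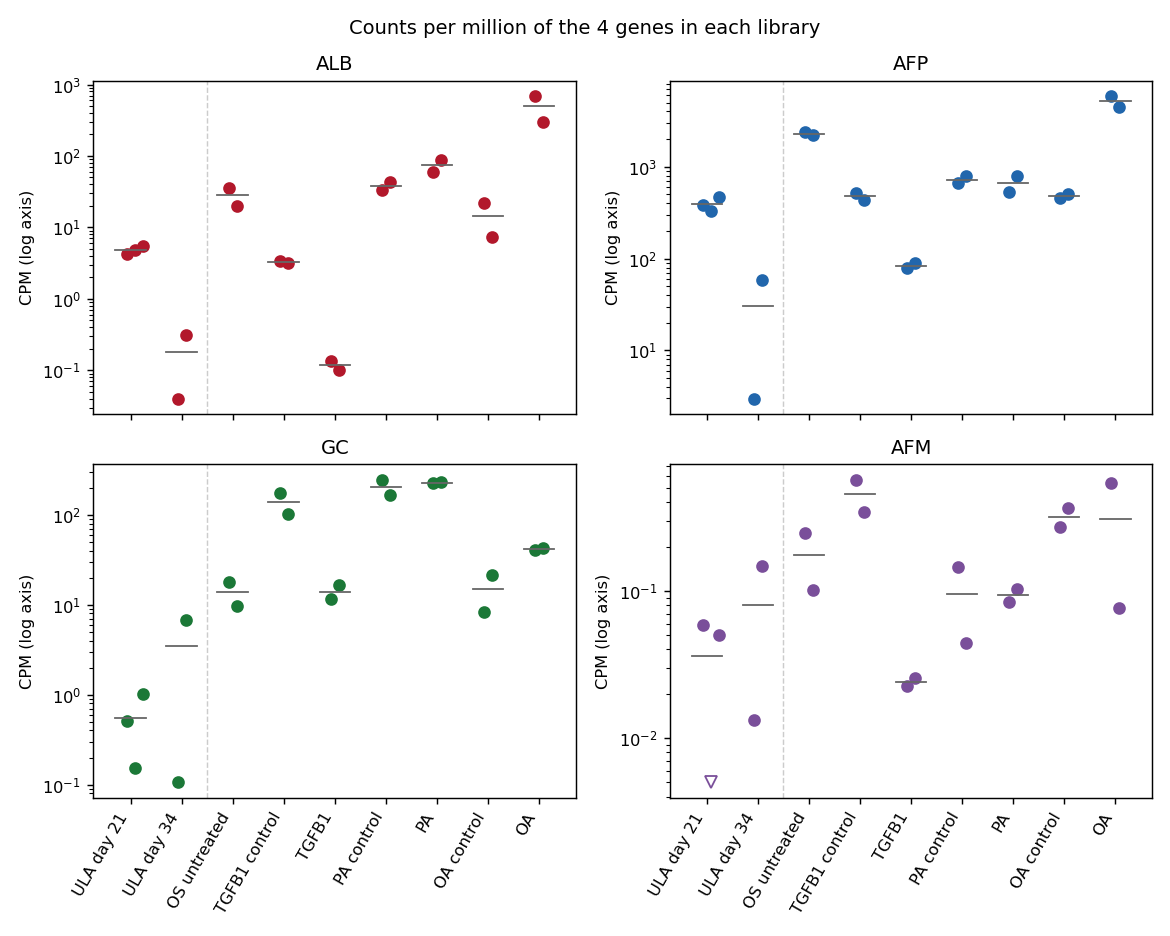
CPM of ALB, AFP, GC and AFM (log axes) in the 19 libraries by group; dots are libraries, bars group means, and the open triangle a library with 0 UMIs drawn at the bottom of the AFM panel. ALB ranged from 0.0396 to 687 CPM and AFP from 2.96 to 5871 CPM, both highest in OA, while GC was highest in the PA experiment and AFM stayed under 0.6 CPM.

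All 4 members fell with TGFB1. ALB fell from 3.35 and 3.14 CPM in the 2 control libraries to 0.136 and 0.102 CPM (6 and 4 UMIs), AFP from 521 and 431 to 79.0 and 88.6 CPM, and GC from 174 and 103 to 11.5 and 16.4 CPM, and in each the groups did not overlap. The log2 fold changes were -4.53 for ALB (SE 0.77, adjusted p = 0.0011), -2.30 for AFP (SE 0.26, adjusted p = 4.4e-05) and -3.09 for GC (SE 0.40, adjusted p = 1.3e-04) by edgeR's quasi-likelihood test with Benjamini-Hochberg adjustment over 19366 genes. AFM gave 1 UMI in each TGFB1 library and 9 and 18 UMIs in the controls. Scaled by total UMIs this is a ratio of 0.0606 (95% counting interval 0.00698 to 0.241, counting error only), with an edgeR adjusted p of 0.0184. The call on AFM was lost without TGFB1 control replicate 1 (edgeR adjusted p = 0.0688) and without either TGFB1 library (0.133 and 0.0958). All 4 members were called in a comparison in which 22.2% of all genes tested were.

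The other genes of hepatocyte secretion moved in both directions with TGFB1. Of 19 tested genes of the hepatocyte secretory list, 9 fell, 1 rose and 9 were not called, where 22.2% of all genes were called. The median log2 fold change was -1.90 against -0.05 over all genes. The largest falls were in ORM2, an acute phase protein (log2 fold change -3.74), and APOB, the protein of very low density lipoprotein (-3.05). Next were the copper carrier CP (-2.79) and the fibrinogen chain FGA (-2.69). ORM2 was near the limit of counting, at means of 0.616 CPM in the control and 0.0383 CPM with TGFB1. The gene that rose was SERPINA1 (alpha-1-antitrypsin), with a log2 fold change of 1.29. Of 17 regulators of the locus, 5 fell and 0 rose, with a median of -0.70. They included ONECUT1 (-3.69), FOXA2 (-3.35), NR2F2 (-1.44) and CEBPA (-1.41), all transcription factors, while HNF4A was not called. Of 8 fetal liver genes tested, 2 fell, the growth factor IGF2 (-3.65) and PEG10 (-1.66), and 6 were not called (median -0.34). Of 12 genes that handle albumin or vitamins D and E, 2 fell, 1 rose and 9 were not called. LRP2 (megalin, an endocytic receptor for GC, -3.49) and TTPA (the liver's vitamin E transfer protein, -2.25) fell, and VDR, the vitamin D receptor, rose (1.70). TTPA was low, at means of 0.676 CPM in the control and 0.118 CPM with TGFB1. The shares called in the fetal liver and handling lists lie near 22.2%, so nothing is read from them about those lists.

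Marker lists of other cells moved with TGFB1 as well, and their part in the fall of the family was not tested. All 10 cycling genes fell and 6 of 10 gut genes fell, where 22.2% of all genes were called. Of 10 mesenchymal genes 4 rose, and of 10 ductal genes 4 rose and 1 fell. Of the 10 squamous genes 2 rose, and of the blood and endothelial genes LYZ fell among 4 tested. The summed mesenchymal list was 1639 to 2032 CPM with TGFB1 against 667 to 683 CPM in the control, and PTPRC and CD14 were under the filter on low counts. With collagen-rich cells left out, the log2 fold changes were -4.57 for ALB, -2.21 for AFP and -2.98 for GC, all called.

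ALB, AFP and GC rose with OA. ALB rose from 22.0 and 7.29 CPM in the control to 687 and 301 CPM, AFP from 458 and 505 to 5871 and 4517 CPM, and GC from 8.31 and 21.3 to 41.1 and 42.7 CPM, with no overlap between the groups. The log2 fold changes were 5.38 for ALB (SE 0.57, edgeR adjusted p = 1.5e-05), 3.78 for AFP (SE 0.27, edgeR adjusted p = 1.2e-06) and 1.87 for GC (SE 0.38, edgeR adjusted p = 0.0016). AFM had 29 and 4 UMIs with OA and 15 and 19 in the control, so the groups overlapped (log2 fold change 0.32, SE 0.67, edgeR adjusted p = 0.73). The 3 calls among 4 members stand in a comparison in which 43.3% of all genes were called. The size of the ALB change was set in part by single libraries, since it was 6.51 when OA control replicate 1 was left out, 4.75 when OA control replicate 2 was and 4.64 when OA replicate 1 was, and GC's was 2.59 without OA control replicate 2. All of these remained past the threshold.

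Of 19 hepatocyte secretory genes tested, 8 rose, 0 fell and 11 were not called, where 43.3% of all genes were called. The median log2 fold change was 0.48 against -0.08 over all genes. The largest rises were in APOC3 (6.27), APOB (4.25), APOA2 (3.52) and APOA1 (2.97), all proteins of lipoprotein particles, while APOH of the same list was not called (0.23, edgeR adjusted p = 0.56). APOC3 reached 1075 CPM from 17.7 CPM. Of the regulators 5 rose and 4 fell of 17, with a median of 0.72. The nuclear receptor NR5A2 (1.84), PROX1 (1.32), CEBPA (1.31) and CEBPD (1.16) rose most, and ZBTB20 was among those that fell (-0.87). ZBTB20, a repressor of AFP after birth, had means of 27.2 CPM in the OA control and 11.7 CPM with OA. Its means were 13.0 and 18.6 CPM in ULA days 21 and 34, and 210 and 186 CPM in the TGFB1 control and TGFB1. Its part in the level of AFP was not tested. Of 8 fetal liver genes 3 fell and 0 rose, namely DLK1 (-3.07), GPC3 (-2.41) and HMGA2 (-1.66), with a median of 0.19. Of the 12 handling genes 4 rose and 1 fell. B2M (1.79) and FCGRT (0.77), which together form the receptor that rescues albumin from degradation, rose. With OA they lay at means of 3678 and 334 CPM, so the B2M rise is not read as one of the receptor. AMN, a partner of the vitamin uptake receptor cubilin, also rose (1.42). TTPA fell (-1.36), from a mean of 0.889 CPM to 0.272 CPM.

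Gut and mesenchymal markers moved with the OA result, and the part of either in it was not tested. Of the 10 gut genes 8 rose, where 43.3% of all genes were called. Their summed level was 10915 to 13962 CPM with OA against 992 to 1809 CPM in the control. PHGR1 gave the most UMIs with OA, at a mean of 9796 CPM. All 10 mesenchymal genes fell, and their sum was 103 to 134 CPM against 2796 to 4515 CPM. Collagen-rich cells had at least 1000 UMIs, at least 3 of the 10 mesenchymal genes and at least 0.5% of their UMIs from them. They numbered 17 and 21 with OA and 1705 and 933 in the control, which is 31.25% and 30.1% of the control cells. With these cells left out, the rises of ALB, AFP and GC were 5.03, 3.37 and 1.42 (edgeR adjusted p = 5.8e-05, 6.6e-06 and 0.0167). Cells with fewer UMIs or a lower mesenchymal share stayed in. Of the cycling genes 9 of 10 fell, of the squamous genes KRT4 fell, of the ductal genes 2 rose and 1 fell, and of 4 blood and endothelial genes tested CD68 and PECAM1 rose and KDR fell. Scaling by library totals in place of TMM factors shifted AFP's fold change by -0.34, a shift of the scale common to all genes, with no call on ALB, AFP or GC lost.

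PA gave no call on any member, against 0.0465% of all genes called. ALB was 60.4 and 88.8 CPM with PA and 33.3 and 43.1 CPM in the control, without overlap. Its log2 fold change was 1.02 (SE 0.48), with an edgeR p of 0.0535 before and 1 after adjustment. The groups overlapped in AFP (log2 fold change -0.07, SE 0.24), GC (0.18, SE 0.36) and AFM (0.74, SE 1.19, from 8 UMIs against 3). Without adjustment, 540 of the 19366 genes and 0 members had an edgeR p under 0.05, and DESeq2 called 0 of the 4. With no filter on low counts ALB was called (1.03, edgeR adjusted p = 0.0185). None of the genes in the hepatocyte secretory, fetal liver, regulator and handling lists or in the 6 marker lists was called, and the hepatocyte secretory median was 0.22 against 0.02 over all genes.

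The effects of OA and PA, both at 500 µM on day 25 with their own controls and unequal or unstated treatment times, differed for 3 of the 4 members. A difference in treatment time cannot be told apart from that between the agents. The same holds for the 2 experiments as a whole, whose matrices listed 36601 (OA) and 33538 (PA) genes. Their controls also differed, with GC at 8.31 and 21.3 CPM in the OA control and 246 and 166 CPM in the PA control. The mesenchymal list summed to 2796 to 4515 CPM in the OA control and 434 to 719 CPM in the PA control. The OA effect exceeded the PA effect by 4.36 for ALB (SE 0.70, edgeR adjusted p = 0.0011), 3.84 for AFP (SE 0.36, edgeR adjusted p = 5.1e-05) and 1.69 for GC (SE 0.52, edgeR adjusted p = 0.0359) on the log2 scale, where 20.5% of all genes were called. The difference for AFM was -0.42 (SE 1.33, edgeR adjusted p = 0.86). The ALB difference was 5.48 when OA control replicate 1 was left out, 3.72 when OA control replicate 2 was and 3.61 when OA replicate 1 was, and that of GC was 2.40 without OA control replicate 2. The call on GC was lost with collagen-rich cells left out (1.27, edgeR adjusted p = 0.154) and with TMM factors replaced by library totals (1.36, edgeR adjusted p = 0.0984) or upper-quartile factors (1.44, edgeR adjusted p = 0.0642). It was also lost when any 1 of PA control replicate 1, OA control replicate 1 or the PA and OA libraries was left out (1.21 to 1.70, lowest without OA control replicate 1). Among the listed genes the difference was 5.25 for APOC3 and 3.98 for APOB, and of 10 gut genes 4 had a called difference, all toward OA.

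The OA control and untreated OS organoids, both without OA, differed in AFP. Its levels were 458 and 505 CPM in the OA control and 2362 and 2231 CPM in untreated organoids, without overlap. The log2 fold change was -2.11 (SE 0.25, edgeR adjusted p = 0.0106), in a comparison in which 0.573% of all genes were called. The call was lost without OA control replicate 1 (log2 fold change -2.12), without OA control replicate 2 (-2.10), and in a fit of these 4 libraries alone (-2.12, edgeR adjusted p = 0.31). ALB (-0.74, SE 0.48), GC (0.23, SE 0.37) and AFM (0.90, SE 0.72) were not called. Of the lists, ORM2 rose in the hepatocyte secretory list, and in the gut list OLFM4 rose and MUC13 fell, with 0 calls in the others. The OA control libraries enter both this comparison and that of OA with its control, so a low AFP there counts in both. The OA libraries, at 5871 and 4517 CPM, lay above both groups.

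In ULA plates, day 34 held less ALB than day 21. ALB fell from 4.30, 4.90 and 5.49 CPM to 0.0396 and 0.316 CPM, which is 3 and 28 UMIs. The log2 fold change was -4.85 (SE 0.69, edgeR adjusted p = 0.0063 over 22261 genes, of which 15.6% were called). AFP was 382, 330 and 474 CPM on day 21 and 2.96 and 57.9 CPM on day 34, without overlap. Its change of -3.81 on the log2 scale (SE 1.08) missed the threshold (edgeR adjusted p = 0.0536). It passed with both day 34 libraries in DESeq2 (-3.82, adjusted p = 0.0161) and in edgeR with no filter on low counts (-3.80, adjusted p = 5.95e-06) or with collagen-rich cells left out (-3.88, adjusted p = 0.0260). GC gave 2.51 (SE 1.27, edgeR adjusted p = 0.22, and 0.00956 with no filter on low counts), with day 34 replicate 2 above and replicate 1 below every day 21 library. AFM, with 9 and 14 UMIs in all, was not tested. The values differed widely between the 2 day 34 libraries. Without day 34 replicate 1, AFP changed by -2.88 and GC by 3.48, and without day 34 replicate 2 by -7.20 and -2.53, while the ALB value was -4.06 and -7.02. Each of these fits leaves 1 day 34 library, assumed to vary like those of day 21, so although edgeR called all of them, GC in opposite directions, the calls say little of day 34. The call on ALB was lost without day 21 replicate 3 (-4.76, edgeR adjusted p = 0.0525).

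Genes of the regulator and hepatocyte secretory lists fell as well. Of 17 regulators 7 fell and 1 rose, where 15.6% of all genes were called. Their median log2 fold change was -1.51 against 0.01 over all genes. FOXA1 (-3.80), HNF4A (-3.56) and GATA4 (-3.49), factors of the endoderm and liver, were among those that fell, and CEBPD rose (1.97). Of 19 hepatocyte secretory genes 8 fell and 0 rose (median -2.14), among them the fibrinogen chains FGG (-4.21) and FGB (-3.74), APOB (-3.95) and RBP4, the retinol carrier (-3.75). In the fetal liver list IGF2 (1.58) and DLK1 (1.19) rose, LIN28B (-1.01) fell and 5 were not called. In the handling list CYP24A1, which degrades vitamin D, rose (3.54), and TTPA (-2.03) and LRP2 (-1.91) fell. TTPA was low, at means of 0.485 CPM on day 21 and 0.128 CPM on day 34. Of 10 gut genes 8 fell and of 10 squamous genes 9 rose, of the cycling genes 7 fell, PDGFRB rose among 10 mesenchymal genes, PECAM1 fell among 5 blood and endothelial genes, and of 10 ductal genes 2 rose and 1 fell. The summed squamous list was 877 to 2807 CPM on day 34 against 307 to 406 CPM on day 21, and the part of these lists in the result was not tested. Dissociation differed between the days as well, since day 34 organoids had a longer trypsin step per the labels, which cannot be told apart from age.

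**Figure D2:**
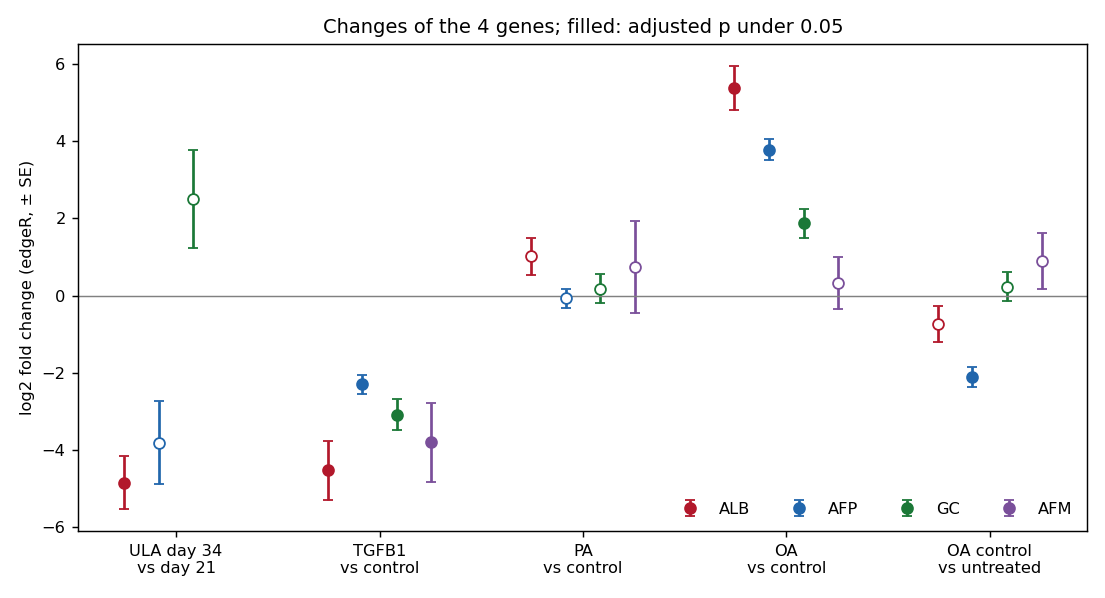
Log2 fold changes (edgeR, bars are SE) of the 4 genes in the 5 comparisons; filled dots have an adjusted p under 0.05. All 4 lie below 0 with TGFB1, ALB, AFP and GC lie above 0 with OA at 5.38, 3.78 and 1.87, and none is filled with PA.

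The balance of AFP and ALB within a library does not depend on its depth. There were 580 and 869 AFP UMIs per ALB UMI with TGFB1 (from 6 and 4 ALB UMIs) against 155 and 137 in its control, a difference in log2(ALB/AFP) of -2.28. With PA there were 8.87 and 8.91 AFP UMIs per ALB UMI against 19.8 and 18.3 in the control, a difference of 1.10. With OA there were 8.54 and 15.0 against 20.8 and 69.3, a difference of 1.74. The controls differed widely, and the difference was 2.61 when OA control replicate 1 was left out and 0.88 when OA control replicate 2 was. The groups did not overlap in these 3 comparisons, and each exact permutation test (2-sided) gave 0.33, the smallest p that 2 against 2 libraries allow (0.5 after adjustment over 5 comparisons). Untreated organoids held 65.5 and 111 AFP UMIs per ALB UMI, and ULA organoids 89.0, 67.5 and 86.3 on day 21 and 74.7 and 183 on day 34. In these pairs the groups overlapped, with differences of 1.17 for the OA control against untreated organoids (exact permutation p = 0.667) and -0.54 for ULA (exact permutation p = 0.4). The PA libraries thus had a lower AFP to ALB ratio than their controls while neither gene passed its own test. A ratio shows unequal change and not which of the genes changed.

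**Figure D3:**
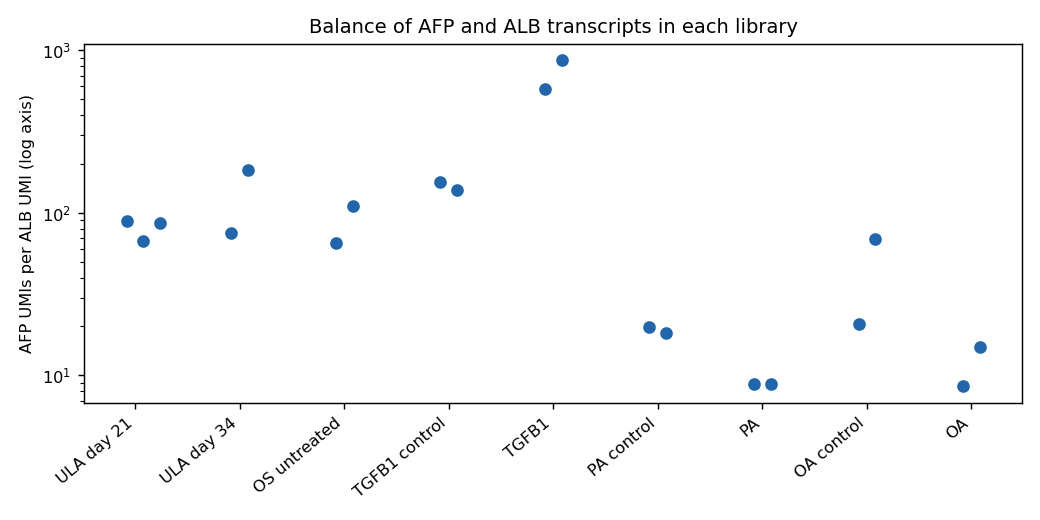
AFP UMIs per ALB UMI (log axis) in each library by group. PA and OA libraries lie lowest, between 8.54 and 15.0, and the TGFB1 libraries highest, at 580 and 869.

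Single cells were compared after thinning each cell to 1000 UMIs, which leaves out cells with fewer (12 to 708 per library, and 2932 in TGFB1 control replicate 1). With OA, 67.5% and 68.4% of cells held an AFP UMI against 16.3% and 13.1% in the control, and 17.1% and 11.7% held an ALB UMI against 0.960% and 0.435%. GC was found in 5.32% and 5.30% of OA cells against 0.883% and 2.04%. With TGFB1, AFP was found in 6.43% and 7.22% of cells against 24.001% and 17.3%, and GC in 0.919% and 1.62% against 13.4% and 8.83%. ALB was found in 1 cell of each TGFB1 library and in 13 and 12 control cells. The groups did not overlap in these 6 comparisons, and each gave an exact permutation p of 0.33, the smallest that 2 against 2 allow (0.513 after adjustment over 20 comparisons). More cells were thus positive for these genes in the OA libraries, and fewer in the TGFB1 libraries, than in their controls.

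With PA, ALB was found in 1.40% and 2.15% of cells against 1.58% and 2.22% in the control, so the groups overlapped in its share and not in its CPM. The positive cells held 3.35 and 5.69 ALB UMIs on average with PA and 1.91 and 2.03 in the control at this depth. AFP was found in 16.96% and 22.3% of PA cells against 22.4% and 23.3%, and GC in 9.82% and 10.3% against 8.13% and 8.58%, both without overlap and both at the smallest exact permutation p of 0.33. At 3000 UMIs the AFP shares overlapped (31.8% and 34.8% against 47.1% and 32.1%) and those of GC did not (17.5% and 21.9% against 16.9% and 15.9%). Without thinning the shares of both genes overlapped. In ULA organoids AFP was found in 11.2%, 7.44% and 11.9% of cells on day 21 and 0.185% and 2.58% on day 34. ALB was found in 16, 9 and 14 cells on day 21 and in 2 of 12334 cells of day 34 replicate 2. Day 34 replicate 1 held 0 of 4314, which allows up to 0.0695% of cells with an ALB UMI at this depth and does not limit the cells that express it, since 0.0693% of its cells held an ALB UMI without thinning. Both genes gave the smallest exact permutation p that 3 against 2 libraries allow, 0.1 (0.513 after adjustment).

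As a background, collagen-rich cells were used, since cells of that kind should lack the family. AFP was found in 0% to 4.81% of them in the 15 libraries with at least 50 such cells outside the untreated group. In untreated organoids the share was 12.5% and 18.1% of collagen-rich cells (median 3940 and 2365 UMIs before thinning) against 31.6% and 47.8% of all cells (median 4418 and 2704 UMIs). The AFP share of collagen-rich cells was thus higher in both untreated libraries than in any of the other 15. In the OA control the same background was 2.70% and 1.29%. OA had 17 and 21 collagen-rich cells, of which 0 and 2 held an AFP UMI. ALB was found in at most 0.480% and GC in at most 1.67% of collagen-rich cells in the 17 libraries, the latter 4 of 239 cells in TGFB1 control replicate 1. Without thinning, AFP was found in 85.8% and 86.2% of OA cells and 34.3% and 38.3% of control cells, and ALB in 39.9% and 31.2% against 3.996% and 2.10%.

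Transcripts were unevenly spread among cells. The share held by the richest 1% was taken without thinning and depends on the share of positive cells and on depth. A difference between groups in it is therefore not read as one in spread. The 1% of cells richest in ALB held 36.4% and 44.6% of its UMIs with OA, 78.1% and 91.1% in the OA control and 76.4% to 89.4% in the PA experiment. The highest counts in a single cell were 1117 UMIs for ALB and 3999 UMIs for AFP, both in OA replicate 1. In some controls 1 cell held a large part of the ALB UMIs. It held 609 of 1951 in PA control replicate 2, 50 of 164 in TGFB1 control replicate 2 and 16 of 53 in TGFB1 control replicate 1. For AFP the richest 1% held 17.4% and 20.1% with OA and 34.9% and 43.9% in the control. For GC this share was lowest in the TGFB1 control, at 18.3% and 16.3%.

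**Figure D4:**
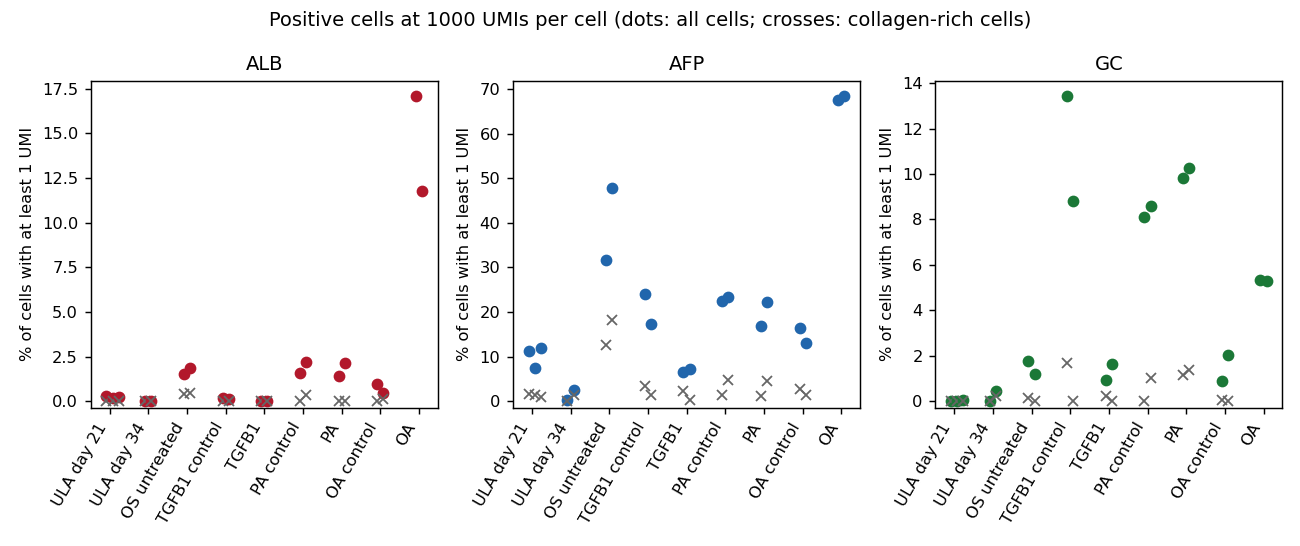
Percent of cells with at least 1 UMI of ALB, AFP or GC at 1000 UMIs per cell, by library and group (dots), and of collagen-rich cells where a library has at least 50 (crosses). OA stands highest for ALB (17.1% and 11.7%) and AFP (67.5% and 68.4%), GC overlaps between the TGFB1 control (13.4% and 8.83%) and PA (9.82% and 10.3%), and crosses are highest for AFP in untreated organoids.

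ALB was found mostly in cells that also held AFP. In the 9 libraries where the separate shares predicted at least 5 double positive cells, 86.0% to 96.4% of ALB-positive cells held AFP, and cells with both numbered 1.41 to 5.48 times the product of those shares (median 3.89). The ratio was above 1 in 9 of 9. Of AFP-positive cells, 24.3% and 16.6% held ALB with OA, and 5.06% and 3.05% in the OA control. The ratio was lowest with OA (1.42 and 1.41), where AFP was already in most cells. Cells with ALB and no AFP numbered at most 23 in a library. Outside the 9 libraries ALB-positive cells were few. AFP was held by 10 of 16, 9 of 9 and 12 of 14 of them in ULA day 21. It was held by 9 of 13 and 8 of 12 in the TGFB1 control and 12 of 13 in OA control replicate 2. At 3 or more UMIs the share in libraries with at least 20 ALB-positive cells ran from 75% (PA control replicate 2) to 100% (untreated replicate 1).

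GC paired with AFP less tightly. Cells with both numbered 1.01 to 3.37 times the predicted number in 13 libraries (median 1.51). In the TGFB1 control the ratio was 1.01 and 1.04, with 217 and 132 cells against 215 and 127 predicted. It was 1.95 and 1.54 in the PA control, 1.72 and 1.51 with PA, 1.26 and 1.14 with OA, and 2.80 and 3.37 in its control. The ratio has a lower ceiling where AFP is in more cells, as with OA. Of GC-positive cells, 84.8% and 78.2% held AFP with OA, and 45.7% and 44.3% in its control. The lower ratio with OA is therefore not read as looser pairing. ALB and GC were found together at 1.44 to 4.27 times the predicted number in the 5 libraries that allow it. The 3 pairs with AFM had too few cells in every library. Doublets and free RNA can also give double positive cells, and the part of free RNA was not tested. With predicted doublets removed the ratio for ALB and AFP was 1.42 to 5.62, and for AFP and GC it was 0.998 to 3.41, above 1 in 12 of 13 libraries.

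Cells with AFP held higher sums of both the hepatocyte and the gut lists. SERPINA1 and PHGR1 gave the most UMIs in these lists by mean CPM, and single genes were not compared between the classes. Cells were classed at 1000 UMIs as holding AFP only, both AFP and ALB, ALB only or neither, and listed genes were summed over the full counts of each class with at least 20 cells. AFP-only cells exceeded cells with neither in the hepatocyte secretory list in 18 of 18 libraries, by a median ratio of 1.73 (1.46 to 17.7, highest in ULA day 34 replicate 2), and in the gut list in 18 of 18, by 3.21 (1.53 to 12.4). They held less of the mesenchymal list in 18 of 18 libraries (median ratio 0.165), less of the cycling list in 18 of 18 (0.562) and less of the fetal liver list in 17 of 18 (0.615). The fetal liver list does not mark hepatocytes alone here. In cells with neither gene of ULA day 34 replicate 1 it summed to 1617 CPM, where the hepatocyte secretory list summed to 63.1 CPM. In AFP-only cells the handling list was higher in 18 of 18 (1.45). It was led by B2M, at a mean of 1241 CPM over libraries against 208 CPM for FCGRT, the next. The regulators were higher in 14 of 18 (1.10), the ductal list in 10 of 18 (1.05), the blood and endothelial list, led by LYZ, in 18 of 18 (2.18), and the squamous list in 0 of 18 (0.723). The classes differed in depth as well, with a median of 20741 UMIs in AFP-only and 11038 UMIs in other cells of ULA day 21 replicate 1 and 11002 and 8158 UMIs in OA replicate 1. The order was the other way with TGFB1, at 6749 against 7184 UMIs in replicate 1 and 5082 against 5245 UMIs in replicate 2.

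Cells with both genes were compared with AFP-only cells in the 9 libraries that held at least 20 of each. These classes differed in depth in some libraries, in either direction. Median UMIs were 2642 in cells with both and 8059.5 in AFP-only cells of PA control replicate 2, and 13566 and 11002 in OA replicate 1. Where a cell needed 3 or more UMIs of a gene, they were 2455 and 8087 in PA replicate 2, and 15173 and 12132 in OA replicate 1. Cells with both exceeded AFP-only cells in the hepatocyte secretory list in 8 of 9 libraries (median ratio 1.59) and in the gut list in 9 of 9 (1.64). They also did so in the handling list, led by B2M, in 9 of 9 (1.34), and in the share of cells with GC in 9 of 9 (1.97). The cycling (0.624), fetal liver (0.777) and ductal (0.827) lists were each higher in 1 of 9. The fetal liver direction did not hold where a cell needed 3 or more UMIs of a gene, with cells with both higher in 4 of 5 libraries (1.04), while the cycling ratio was 0.191 there (0 of 5) and 0.836 with thinning to 3000 UMIs (5 of 13). The handling ratio at 3 or more UMIs was also 1.04, higher in 4 of 5. The other lists had no common direction, being higher in 4 of 9 for the regulators (0.996), 4 of 9 for the mesenchymal list (0.755), 4 of 9 for the blood and endothelial list (0.920) and 3 of 9 for the squamous list (0.971). In OA replicates 1 and 2 the gut list summed to 19832 and 16579 CPM in cells with both, 14100 and 11372 CPM in AFP-only cells and 9210 and 6832 CPM in cells with neither. The hepatocyte secretory list summed to 31300 and 26305, 19701 and 21960, and 10063 and 12880 CPM in the same classes. In PA replicates 1 and 2 the hepatocyte secretory list summed to 66011 and 64463 CPM in cells with both, and the gut list to 2209 and 5201 CPM. Summed hepatocyte and gut transcripts were thus both higher in cells with ALB and AFP than in cells with neither gene in these libraries. Against AFP-only cells, the 1 library in which cells with both held less of the hepatocyte list was OA control replicate 1, with a ratio of 0.914.

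**Figure D5:**
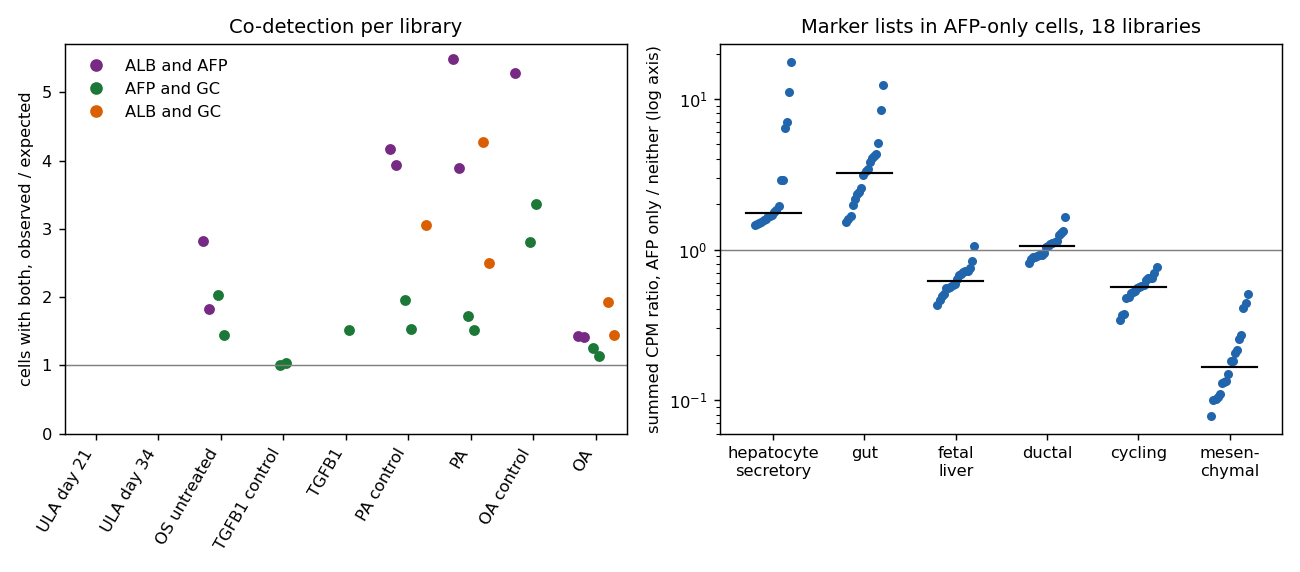
Left, observed over predicted number of cells with both genes per library, where at least 5 were predicted; right, summed CPM of 6 gene lists in AFP-only cells over cells with neither gene (log axis), each dot a library and each bar the median of 18. ALB with AFP lies above 1 in all 9 libraries shown, AFP with GC near 1 in the TGFB1 control, and the gut list has a median ratio of 3.21.

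Genes whose level followed each member most closely over the 19 libraries were ranked by Pearson r of log2(CPM + 1) among 11146 genes with a mean of at least 5 CPM, as a description over libraries that share treatments, cell line and experiment. Nearest to ALB were SLC15A1 (an intestinal peptide transporter, r = 0.949), PLAC8 (0.949), IL2RG (0.947), APOC3 (0.944) and FUT2 (0.943). Nearest to AFP were FGB (a fibrinogen chain, r = 0.968), MUC13 (a mucin of gut epithelium, 0.951), CDH17 (an intestinal cadherin, 0.950), FAM135A (0.950) and CEACAM6 (0.945). Nearest to GC were WWC1 (0.952), CFAP221 (0.941), the coagulation factor F5 (0.937), LRCH4 (0.935) and CASZ1 (0.935). AFP ranked 116 for ALB with r = 0.834, and GC ranked 1160 for ALB (r = 0.492) and 1412 for AFP (r = 0.443). AFM lay under 5 CPM and was not ranked.

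Between 100 kb before GC and 250 kb after AFM lie 20 other annotated genes, of which 11 are in every matrix and 7 were tested in the OS libraries. The shares called were 3 of 7 with OA and 2 of 7 with TGFB1, beside 43.3% and 22.2% of all genes, so nothing is read from them about the locus. With TGFB1, CXCL8, the neutrophil chemokine (1.40), and NPFFR2, at 0 CPM in both controls and a mean of 0.251 CPM with TGFB1, were higher and 0 were lower. With OA, RASSF6 (log2 fold change 2.30) and CXCL8 (3.25) rose and ADAMTS3 fell by 3.38, while COX18 (0.04) and ANKRD17 (-0.04), both between GC and ALB, were not called. With PA 0 of 7 were called, and in ULA organoids CXCL8 rose by 3.23 among 6 tested. ANKRD17 lay at 86.4 CPM in the TGFB1 control and 72.0 CPM with TGFB1.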

How the data were processed

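The deposited matrices hold unnormalized UMI counts for each gene in each cell barcode, made by the authors with Cell Ranger 3.0.2, bcl2fastq and Scanpy on GRCh38 per the submitters' processing notes. Per the file headers, the software version was 3.0.2 for some matrices and 6.0.2 for those of untreated, OA and OA control libraries. Genes were matched by Ensembl identifier, and 32703 identifiers were in every matrix. Cells with 500 or more genes and up to 20% mitochondrial counts were kept, and their UMIs were summed per library over the shared identifiers for CPM.

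Summed counts were tested with edgeR 4.0.16 (quasi-likelihood, TMM factors, limma 3.58.1, R 4.3.3), with p-values adjusted by Benjamini-Hochberg over all genes tested and a threshold of 0.05. The 14 OS libraries entered 1 fit by group and the 5 ULA libraries another. The SE given for an edgeR fold change is its absolute value over the square root of the quasi-likelihood F statistic. Shares of positive cells and ratios were compared by exact 2-sided permutation tests (scipy 1.17.1). Cells were thinned to 1000 UMIs for shares, co-detection and classes. Predicted doublets (Scrublet in scanpy 1.11.5, the top 0.8% per 1000 barcodes, 2.75% to 10.7% of kept cells) stayed in, and were removed as an alternative. Intervals and limits for a count of 0 (3 counts) cover counting error only. The test was checked on simulated counts for OA against its control over 19366 genes, where 50 of 50, 40 of 50, 42 of 50 and 50 of 50 genes changed by -3, -1.5, 1.5 and 3 on the log2 scale were recovered, with 5 false calls. Few genes were changed in it, none as low as AFM, whereas 43.3% of genes were called in the data. The check therefore says nothing of scaling where so many genes change, nor of the call on AFM. Totals were 6880807 to 91184130 kept UMIs per library, which limits AFM and the low ALB levels.

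Listed genes were named as the up to 4 called members of each list with the largest absolute change, and further genes (SERPINA1 and HNF4A with TGFB1, CEBPD in ULA, ZBTB20 and APOH with OA) were chosen after their values were seen. One gene that the rule names is not reported here. The members and lists were chosen with earlier results of these data known. Alternatives were DESeq2 1.42.0, library totals, upper-quartile factors, no filter on low counts, only the libraries compared, a stricter cell filter (1000 genes, 10% mitochondrial), doublets or collagen-rich cells removed, other thinning depths, a replicate block and each library left out.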

Additional observations from a re-analysis of the deposited data

Results flagged for a closer look

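The effects of OA and PA on ALB, AFP and GC differed by a test of the difference itself, the OA effect minus the PA effect in 1 edgeR fit of the 14 OS libraries. The difference on the log2 scale was 4.36 for ALB, 3.84 for AFP and 1.69 for GC, with 2 of 2 OA libraries above both OA control libraries for each gene. For AFM it was -0.42 and was not called (edgeR adjusted p = 0.86). The call on GC did not hold under 10 of 18 alternatives, among them library totals, upper-quartile factors, collagen-rich cells left out and 6 of the fits that leave out 1 library, with an edgeR adjusted p of up to 0.154. The 2 agents were tested against separate controls with different library depths, and the OA control held less ALB than the PA control (7.29 and 22.0 against 33.3 and 43.1 CPM). A difference between the 2 experiments cannot be told apart from one between the agents. No formal test for an outlying library was run, because no group had more than 3 libraries.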

How the results depend on the processing

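The calls of ALB, AFP and GC with TGFB1 and with OA held under every alternative run, and all 4 members were called with TGFB1 under each except when single libraries were left out (3 to 4 members). In ULA organoids the number of members called (1) was 2 with DESeq2 (5001 of 22261 genes called in all), 3 with no filter on low counts (5160 of 38618), 2 without collagen-rich cells (4233 of 21987) and 0 with a replicate block (0 of 22261), and 0 to 3 with single libraries left out (697 to 7166 genes called). The 3 came from fits with 1 day 34 library, and any fit left with 1 library in a group assumes that it varies like the other groups. AFP was the member gained in the first 3 of these fits, with GC beside it when no filter was used. These stand beside 3476 of 22261 genes called in the report's fit. With PA 1 member was called with no filter on low counts (162 of 27805). For the OA control against untreated organoids 0 were called in a fit of only those libraries (0 of 17760, against 111 of 19366), and 0 to 1 with single libraries left out. The cause of each change was not tested.

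Library totals in place of TMM shifted AFP by 0.13 in ULA, -0.21 with TGFB1, -0.06 with PA, -0.34 with OA and -0.14 for the OA control. The co-detection of AFP with GC had a median of 3.09 at 3 or more UMIs against 1.51, over 3 libraries in place of 13, and that of ALB with AFP ran from 2.02 to 13.0 over 4 libraries, with PA replicate 2 at 13.0 against 3.89. At 3 or more UMIs the ductal list in AFP-only cells against cells with neither had a median ratio of 0.951 (higher in 7 of 18 libraries), and the fetal liver and mesenchymal lists in cells with both against AFP-only cells had 1.04 and 1.199 (4 of 5 and 3 of 5).

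The values below changed sign, and of the fold changes among them edgeR called only that of GC in ULA, with no filter on low counts (2.52) and in the fits with 1 day 34 library. The AFM fold change with OA was -0.033 with library totals and -0.13 without collagen-rich cells, and with single libraries left out it ran from -1.68 to 1.12. The AFM and GC fold changes with PA were -0.50 and -0.11 under the stricter cell filter. With single libraries left out, AFM with PA ran from -0.57 to 1.198, GC from -0.11 to 0.58 and AFP from -0.38 to 0.20. GC in ULA ran from -2.53 to 3.48, and GC in the OA control from -0.48 to 0.71. The AFM difference between OA and PA was 0.62 under the stricter filter and ran from -2.42 to 0.84. Shares of cells are differences in percentage points. For ALB with PA the share was 0.3327 at 3 or more UMIs, 0.269 without thinning and -0.4997 to 0.245 with single libraries left out. For AFM it was 0.00728 (PA) and -0.0228 (OA) at 3000 UMIs, 0.0164 (PA) without thinning, and for OA -0.0189 under the stricter filter and -0.0268 without collagen-rich cells. It ran from -0.0227 to 0.0125 for PA, -0.0765 to 0.0919 for OA and -0.00277 to 0.112 for the OA control with single libraries left out. The GC share was -0.00298 in ULA at 3 or more UMIs and -0.0273 to 0.419 with single libraries left out, and for the OA control it was 0.132 at 3000 UMIs and 3.19 without thinning, and -0.615 to 0.541 with single libraries left out. The ratio of ALB to AFP in ULA (log2) ran from -1.19 to 0.11 with single libraries left out.

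With a replicate block, ALB in ULA was not called (-5.12, edgeR adjusted p = 0.0932) and GC in the difference between OA and PA was not called (1.68, edgeR adjusted p = 0.0530), and no other call on a member changed. Deviations of same-numbered libraries correlated at -0.157 and -0.260 in ULA, -0.185 for TGFB1, 0.0858 for PA, 0.0398 for OA and -0.406 for the OA control. With 2 libraries in a group, the deviations of replicates 1 and 2 mirror each other, so each OS comparison gives 1 value. These values cannot show whether same-numbered libraries shared a batch. The labels link them only by a replicate number.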
